A study of Homo sapiens with 6 samples.

Results

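P2RX7 encodes an ATP-gated ion channel of immune cells, and it is described here with 9 other genes of purinergic signalling and of the inflammasome: the channels P2RX4, P2RX1 and P2RX5, the nucleotide receptor P2RY2, the ATP-degrading enzyme ENTPD1, and the inflammasome genes NLRP3, PYCARD, CASP1 and GSDMD. The 10 genes were taken by symbol from 26410 rows of a gene count table. They were selected on earlier results of the same comparison, that is the counts of these 6 libraries, so their differences between groups are a description and carry no p-value. Kasumi-1, the source of all libraries, is a line of human acute myeloid leukaemia with the RUNX1::RUNX1T1 fusion. The control group had 3 libraries of cells given a scrambled hairpin, which the treatment label calls WT, and the other group had 3 libraries of cells given a hairpin against PHF19 (shPHF19), an accessory subunit of Polycomb repressive complex 2. Both groups carry a lentiviral vector with GFP and puromycin resistance and were selected with puromycin, so selection is common to both. How many hairpins were used, and their sequences, is not stated in the labels. Nor do the labels tell whether the replicates of a group were separate cultures, so the p-values given below for other genes cover only the spread among these libraries, part of which may be technical.

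Cells release ATP when they are stressed or damaged, and neighbouring cells sense it through P2X channels, which open to cations, and through P2Y receptors, which signal through G proteins. P2X7 needs more ATP than the other P2X channels, and in monocytes and macrophages its opening lets potassium leave the cell, a well-known trigger of the NLRP3 inflammasome. That complex joins the sensor NLRP3 to the adaptor ASC (gene PYCARD) and to caspase-1, which matures interleukin 1 beta and interleukin 18 and cuts gasdermin D, the pore-forming protein of pyroptosis. Enzymes on the cell surface such as CD39 (gene ENTPD1) and CD73 (gene NT5E) convert extracellular ATP stepwise to adenosine.

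Promoter sequence was held by the RefSeq table used (GRCh38.p14) for 5 of the 10 genes. The 250 bases before the start that RefSeq gives to P2RX7, to its neighbour P2RX4 and to NLRP3 are shown because P2RX7 and P2RX4 lie next to each other and differed so unlike in size, and because NLRP3 is the sensor of the pathway. The GENCODE 29 gene starts used in the rest of the text lie elsewhere: those of P2RX7 and NLRP3 fall inside the stretch shown, and that of P2RX4 lies before it. Each reads 5′ to 3′ on the plus strand, and capitals mark CG dinucleotides.
P2RX7, chr12:121132626-121132875: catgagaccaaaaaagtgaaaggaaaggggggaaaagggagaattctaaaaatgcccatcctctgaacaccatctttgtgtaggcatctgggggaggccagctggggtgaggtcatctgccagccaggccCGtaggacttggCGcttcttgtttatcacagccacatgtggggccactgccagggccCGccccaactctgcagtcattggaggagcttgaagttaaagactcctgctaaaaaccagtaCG
P2RX4, chr12:121209879-121210128: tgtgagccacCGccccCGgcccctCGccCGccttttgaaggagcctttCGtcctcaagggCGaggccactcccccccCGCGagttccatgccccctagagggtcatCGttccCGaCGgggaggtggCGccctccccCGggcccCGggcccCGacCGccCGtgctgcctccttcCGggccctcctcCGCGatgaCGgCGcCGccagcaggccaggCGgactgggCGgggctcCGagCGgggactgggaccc
NLRP3, chr1:247415923-247416172: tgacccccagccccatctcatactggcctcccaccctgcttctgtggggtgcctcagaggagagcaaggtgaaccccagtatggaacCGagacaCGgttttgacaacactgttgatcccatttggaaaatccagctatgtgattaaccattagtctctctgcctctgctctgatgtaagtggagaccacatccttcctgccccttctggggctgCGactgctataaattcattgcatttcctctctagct
The P2RX7 stretch held 4 CG dinucleotides and the NLRP3 stretch 3, against 27 in that of P2RX4. The median over 35116 promoters of the same length was 11, and 29.3% of them held fewer than P2RX7 while 82.3% held fewer than P2RX4. Bases G and C made up 53.2% of the P2RX7 stretch, 76.0% of the P2RX4 stretch and 51.6% of the NLRP3 stretch. On either strand, the RUNX motif TGTGGT was found 1 time for NLRP3 and not for P2RX7 or P2RX4, and 11% of all promoters hold it. The SP1 motif GGGCGG was found 1 time for P2RX7, 3 times for P2RX4 and not for NLRP3 (42.6% of all promoters). The ETS motif GAGGAAG (11.2%) and the AP-1 motif TGANTCA (6.57%) were in none of the 3. The 4 motifs do not contain one another. Such matches describe letters only, and a motif that is missing from this window says nothing of the factor.

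The libraries held 14229878 to 16615143 counts. PHF19 itself stood at 167 to 199 CPM (counts divided by library size scaled by TMM) in control and at 33.0 to 41.1 CPM in shPHF19 libraries, a log2 fold change of -2.32 (SE 0.0975). In the edgeR quasi-likelihood fit of 13014 genes, 60.2% passed an adjusted p of 0.05, 29.4% higher and 30.9% lower in shPHF19 cells. With library totals in place of TMM the median over all genes, as a log2 fold change, moved from -0.03 to -0.24, and higher genes made up 31.5% of the calls in place of 48.8%. Markers of the labelled cells were present in every library, with KIT at 2936 ± 176 CPM and CD34 at 356 ± 11.2 CPM in control cells (SD, n = 3). Of 11 such markers 5 rose and 3 fell in shPHF19 cells, CD34 to 829 ± 21.8 CPM (1.22, edgeR adjusted p = 4.53e-18) and PTPRC (CD45) from 255.5 ± 30.4 to 98.2 ± 10.6 CPM (-1.38, edgeR adjusted p = 1.045e-17), while KIT was not past the threshold (0.16).

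P2RX7 was abundant in control cells and low after PHF19 silencing. Its values were 425, 448 and 451 CPM in control replicates 1, 2 and 3, and 30.2, 28.9 and 28.1 CPM in shPHF19 replicates 1, 2 and 3. Every control library was far above every shPHF19 library, and the spread within each group was small (coefficient of variation 3.15% and 3.56%). The means were 441 ± 13.9 and 29.1 ± 1.04 CPM (SD, n = 3), a 15.2-fold lower level, with a log2 fold change of -3.92 (SE 0.0937; 95% interval -4.11 to -3.74). In raw counts these were 6926, 7608 and 6960 against 407, 447 and 409, so the value rests on 407 counts in its lowest library. By control CPM the gene ranked 241 among 13014, and by shPHF19 CPM it ranked 6323. Its log2 fold change was the 53rd lowest of all genes tested, and 0 genes with at least its control level had a lower one. P2RX7 lies on the plus strand of chromosome 12 from 121132819 to 121188032 (GRCh38, GENCODE 29). In the authors' deposited table its log2 fold change is -3.90 (lfcSE 0.0816).

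**Figure D1:**
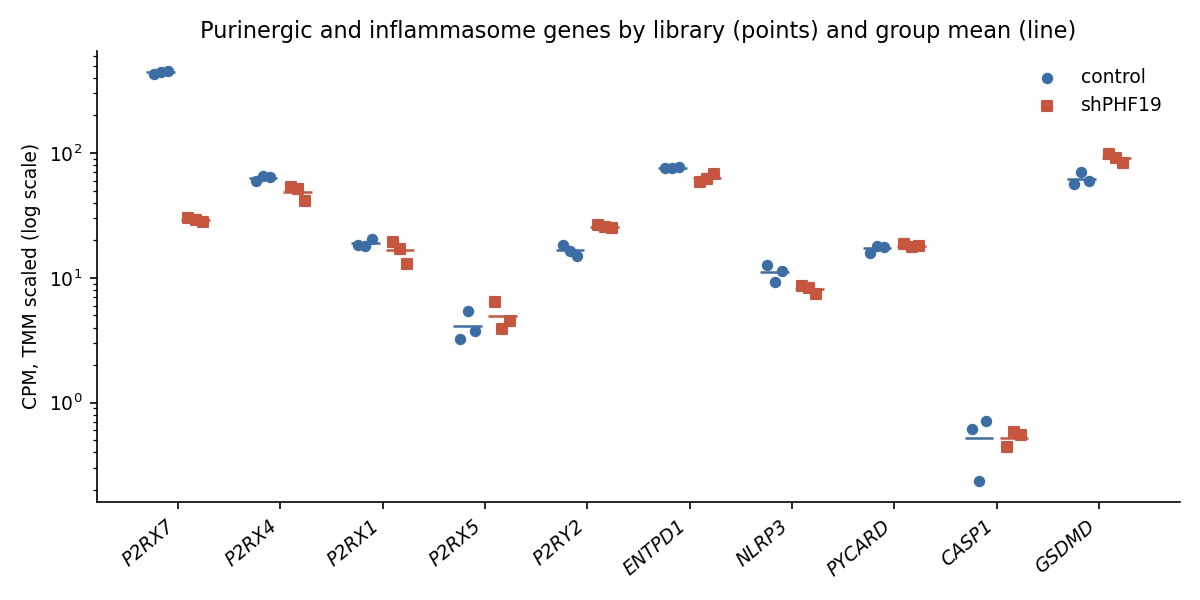
CPM (TMM scaled, log axis) of the 10 genes in each of 3 control (circles) and 3 shPHF19 (squares) libraries, with the group mean as a line. P2RX7 drops from 425 to 451 CPM to 28.1 to 30.2 CPM, while for the other 9 genes the groups lie close together or overlap.

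Of the 10 genes, 9 passed the expression filter, and CASP1 did not. In the fit of all genes 4 of the 9 were past the threshold as lower (P2RX7, P2RX4, ENTPD1 and NLRP3) and 2 as higher (P2RY2 and GSDMD), beside 60.2% of all genes in either direction. P2RX1, P2RX5 and PYCARD were not past it. Control and shPHF19 libraries were fully separated for 6 of the 10 genes, beside 63.5% of all genes tested. These counts are printed for orientation only, since the genes were chosen with the comparison known. The difference next in size to that of P2RX7 was that of P2RY2, at 0.63. The authors' deposited table gives log2 fold changes of -0.35 for P2RX4, 0.63 for P2RY2 and 0.55 for GSDMD.

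**Figure D2:**
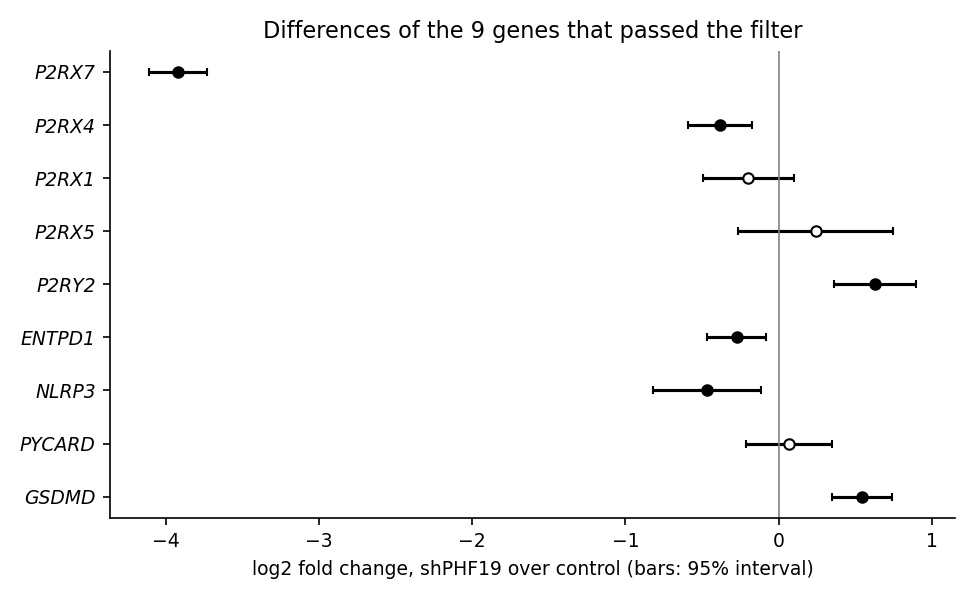
Log2 fold change of shPHF19 over control for the 9 genes that passed the filter, with 95% intervals from the edgeR fit (filled: past an adjusted p of 0.05; open: not past it). P2RX7 lies at -3.92, and the other 8 lie between -0.47 and 0.63.

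The remaining P2X channels differed by far smaller amounts. P2RX4, a channel of endolysosomes and the plasma membrane in macrophages, read 59.8, 65.7 and 64.6 CPM in control and 52.9, 51.7 and 41.4 CPM in shPHF19 libraries. All 3 shPHF19 values were below all control values, with a log2 fold change of -0.38 (SE 0.104). P2RX1, a fast-desensitising channel of platelets and neutrophils, read 18.4, 18.1 and 20.4 CPM in control and 19.5, 17.2 and 13 CPM in shPHF19 libraries. Its groups overlapped, and the log2 fold change was -0.20 with a 95% interval from -0.49 to 0.10. With library totals only, P2RX1 was past the threshold as lower (-0.41 on the log2 scale). P2RX5, a channel found in lymphocytes, read 3.26, 5.42 and 3.76 CPM in control and 6.46, 3.89 and 4.47 CPM in shPHF19 libraries. These values overlapped too, and the interval of the log2 fold change ran from -0.26 to 0.75. P2RX5 shares 1743 of its 4190 annotated exon bases with the readthrough gene P2RX5-TAX1BP3 on the same strand, so its counts depend on how shared reads were treated.

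Per length, P2RX7 made up most of the P2X transcript in control cells and no longer did after silencing. RPKM (CPM per kilobase of annotated exon) of P2RX7 was 79.6 ± 2.50 in control and 5.25 ± 0.187 in shPHF19 cells (SD, n = 3), and that of P2RX4 was 7.77 ± 0.382 and 5.97 ± 0.774. The ratio of P2RX7 to P2RX4 on this scale was 10.5, 10.0 and 10.3 in the control libraries and 0.84, 0.823 and 1.0 in the shPHF19 libraries. P2RX7 was 85.5 ± 0.208% of the summed RPKM of the 4 channels in control and 31.9 ± 2.80% in shPHF19 cells, and the sum itself went from 93.1 ± 3.16 to 16.6 ± 1.96. The 3 other listed P2X genes, P2RX2, P2RX3 and P2RX6, held 0 to 5 counts in any library and did not pass the filter.

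**Figure D3:**
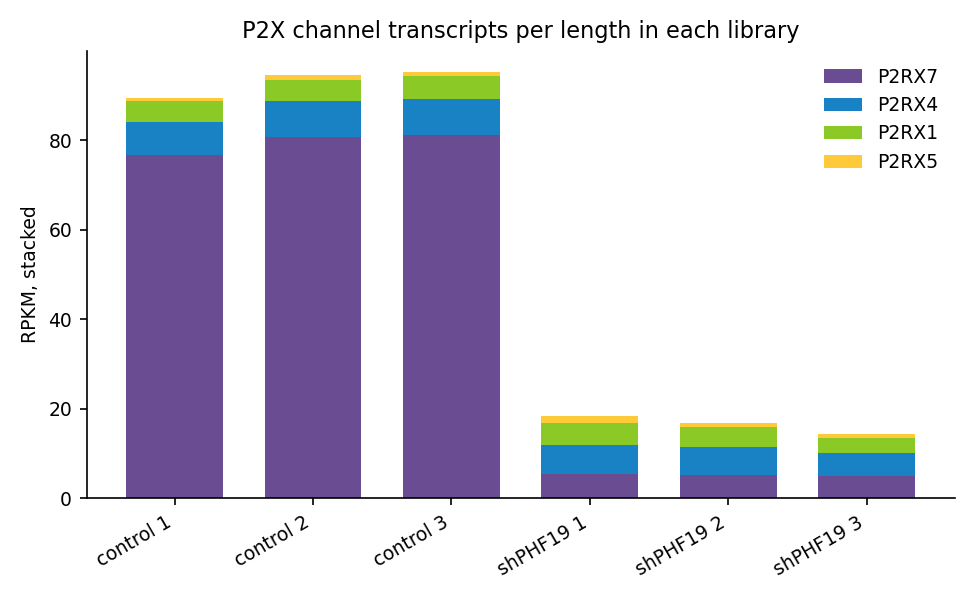
RPKM of P2RX7, P2RX4, P2RX1 and P2RX5, stacked from 0, in each of the 6 libraries. The P2RX7 part is 85.5% of the stack on average in control and 31.9% in shPHF19 libraries; the mean of P2RX4 is 7.77 and 5.97 RPKM.

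In control cells the order of the 10 genes by RPKM was P2RX7, GSDMD (12.1), ENTPD1 (10.9), PYCARD (10.4), P2RX4 (7.77), P2RY2 (5.78), P2RX1 (4.78), NLRP3 (2.35), P2RX5 (0.989) and CASP1 (0.141). GSDMD and ENTPD1 overlapped between libraries, as did ENTPD1 and PYCARD, and no other neighbours in that order did. In shPHF19 cells the order was GSDMD (17.7), PYCARD (10.9), ENTPD1 (9.02), P2RY2 (8.98), P2RX4 (5.97), P2RX7 (5.25), P2RX1 (4.17), NLRP3 (1.70), P2RX5 (1.18) and CASP1 (0.142). There ENTPD1 overlapped P2RY2, and P2RX4 overlapped P2RX7. P2RX7 thus went from the first place to the sixth. Annotated exon length can exceed the length of the transcripts made, so RPKM orders genes only roughly.

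P2RY2, a G protein-coupled receptor for ATP and UTP, was higher in shPHF19 cells. It read 18.3, 16.3 and 15.0 CPM in control and 26.7, 25.4 and 25 CPM in shPHF19 libraries. The groups were separate, and the log2 fold change was 0.63 (SE 0.133). Among 11 other P2Y and related receptors 7 passed the filter, of which 4 rose and 3 fell, where 60.2% of all genes were called. P2RY8 rose from 5.68 ± 0.389 to 14.6 ± 2.56 CPM (log2 fold change 1.37, edgeR adjusted p = 5.85e-09). The UDP receptor P2RY6 rose by 1.22 (edgeR adjusted p = 0.00232). P2RY11, a receptor for ATP, rose by 0.72 (edgeR adjusted p = 0.00428). Of its 2295 exon bases, 1148 are shared with PPAN-P2RY11 and 97 with PPAN on the same strand. Another 113 overlap EIF3G on the opposite strand, which held 8366 counts in control and 10377 in shPHF19 libraries together. The counts of P2RY11 thus depend on how shared reads were treated. The ADP receptor P2RY1 rose by 0.47 (edgeR adjusted p = 0.022). P2RY13, another ADP receptor, fell from 9.31 ± 0.538 to 3.13 ± 0.389 CPM (-1.57, edgeR adjusted p = 1.55e-08; SD, n = 3). LPAR4 (-3.59) and LPAR6 (-0.43), receptors for lysophosphatidic acid related to the P2Y family, also fell (edgeR adjusted p = 6.54e-06 and 0.03), LPAR4 from 19 to 55 counts per control library to 0 to 6. P2RY1 lost its call without control replicate 1 (0.44) or 2 (0.36) or shPHF19 replicate 1 (0.43), with upper-quartile factors (0.37) and with library totals only (0.27), LPAR6 without replicate 1 or 2 of either group (-0.26 to -0.43) and with DESeq2 (-0.41), and P2RY11 without shPHF19 replicate 2 (0.55). LPAR4 passed the filter through the control group alone. Its fitted value was -5.58 without shPHF19 replicate 3, -2.99 without shPHF19 replicate 2 and -2.94 without control replicate 3.

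ENTPD1, which encodes the ATP-degrading enzyme CD39, read 75.6, 76.2 and 76.5 CPM in control and 58.8, 62.1 and 67.8 CPM in shPHF19 libraries. The control values were nearly equal, and all were above the shPHF19 values, at a log2 fold change of -0.27 (SE 0.0947). It was no longer past the threshold without shPHF19 replicate 1 (-0.22) or 2 (-0.26). NT5E, which encodes CD73, the next enzyme of the chain, fell from 4.71 ± 0.461 to 0.414 ± 0.0595 CPM (SD, n = 3), a log2 fold change of -3.48 (SE 0.386; edgeR adjusted p = 8.64e-11). Its counts were 73, 89 and 68 in control and 5, 6 and 7 in shPHF19 libraries. NT5E thus passed the filter through the control group alone, and a gene as low in both groups would not have been tested. ENTPD4, a nucleotidase of intracellular membranes, fell by 0.51 on the log2 scale (edgeR adjusted p = 2.39e-05). The adenosine deaminases ADA and ADA2 (listed in the table under an older symbol) rose by 0.52 and 0.55, and ENTPD6 and the adenosine kinase gene ADK rose by 0.58 and 0.35 (edgeR adjusted p = 1.46e-05, 5.51e-07, 1.59e-06 and 0.00347). Of 17 listed enzymes 9 were tested, 4 rose and 2 fell (66.7% called, near the 60.2% of all genes). ADK lost its call without control replicate 3 (0.26) and with library totals only (0.14). Both adenosine receptors that passed the filter fell, ADORA2B from 6.00 ± 0.810 to 3.67 ± 0.985 CPM (-0.71, edgeR adjusted p = 0.00906) and ADORA3 from 2.41 ± 0.545 to 0.887 ± 0.254 CPM (-1.42, edgeR adjusted p = 0.00272; SD, n = 3). ADORA2B lost its call without control replicate 3 (-0.61) or shPHF19 replicate 3 (-0.55). ADORA3 shares 484 of its 2687 exon bases with TMIGD3 on the same strand.

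Genes of ATP release and of the ion fluxes around P2X7 moved in both directions. Of 11 listed, 9 were tested, 3 rose and 2 fell (55.6% called, near the 60.2% of all genes). SLC17A9, which loads nucleotides into vesicles, rose from 72.3 ± 4.91 to 126 ± 5.16 CPM (0.80, edgeR adjusted p = 1.28e-10; SD, n = 3). LRRC8A, the obligatory subunit of volume-regulated anion channels, rose by 0.66, and its partner subunits LRRC8D and LRRC8C fell by 0.60 and 0.38 (edgeR adjusted p = 4.6e-06, 3.15e-07 and 0.000395). The scramblase gene XKR8 rose by 0.48 (edgeR adjusted p = 0.00294), a call lost with library totals only (0.27). The pannexin channel gene PANX1 and the potassium channel gene KCNK6 were not past the threshold, at log2 fold changes of -0.25 and 0.03.

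NLRP3, the sensor that responds to potassium loss, was somewhat lower in shPHF19 cells. It read 12.8, 9.30 and 11.4 CPM in control and 8.53, 8.35 and 7.36 CPM in shPHF19 libraries. The lowest control value was close to the highest shPHF19 value, without overlap, and the log2 fold change was -0.47 (SE 0.176). The gene was not past the threshold without control replicate 1 (-0.36) or 3 (-0.45), without shPHF19 replicate 3 (-0.40) or with DESeq2 (-0.44). It lies on chromosome 1 from 247416156 to 247449108 (GRCh38, GENCODE 29).

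Of 14 other listed sensors 12 were tested, 6 fell, 1 rose and 5 were not past the threshold. That is 58.3% called, near the 60.2% of all genes, with a median log2 fold change of -0.57 against -0.03 over all genes. NLRP12, NLRP6 and MEFV passed the expression filter through the control group alone, which lowers this median and adds to the 6 that fell. The gap between the medians is therefore not read as a shift of the sensors. NLRP1, a sensor of proteases and double-stranded RNA, fell from 13.6, 18.1 and 14.8 CPM to 2.82, 4.86 and 2.96 CPM. That is a 4.38-fold lower level, with no overlap between groups (-2.12, SE 0.200; edgeR adjusted p = 7.52e-13). NLRP12 fell from 36, 73 and 70 counts in control to 5, 2 and 1 counts in shPHF19 libraries (-4.26, SE 0.524; edgeR adjusted p = 1.37e-09), and its value was -5.09 without shPHF19 replicate 1. The pyrin gene MEFV (-2.80) and NLRP6 (-3.75) also fell from low levels (edgeR adjusted p = 4.27e-06 and 1.19e-05), with NLRP6 at -5.33 without shPHF19 replicate 1. CARD8, a sensor related to NLRP1 in its protease-dependent activation, fell from 114 ± 7.65 to 75.3 ± 8.88 CPM (-0.60, edgeR adjusted p = 3.9e-07). IFI16, a DNA sensor, fell from 112 ± 5.42 to 71.3 ± 11.4 CPM (-0.65, edgeR adjusted p = 1.14e-07; SD, n = 3). NLRC5, better known as an activator of HLA class I genes, rose by 0.56 (edgeR adjusted p = 1.46e-06). The DNA sensor AIM2 had no count in any library.

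**Figure D4:**
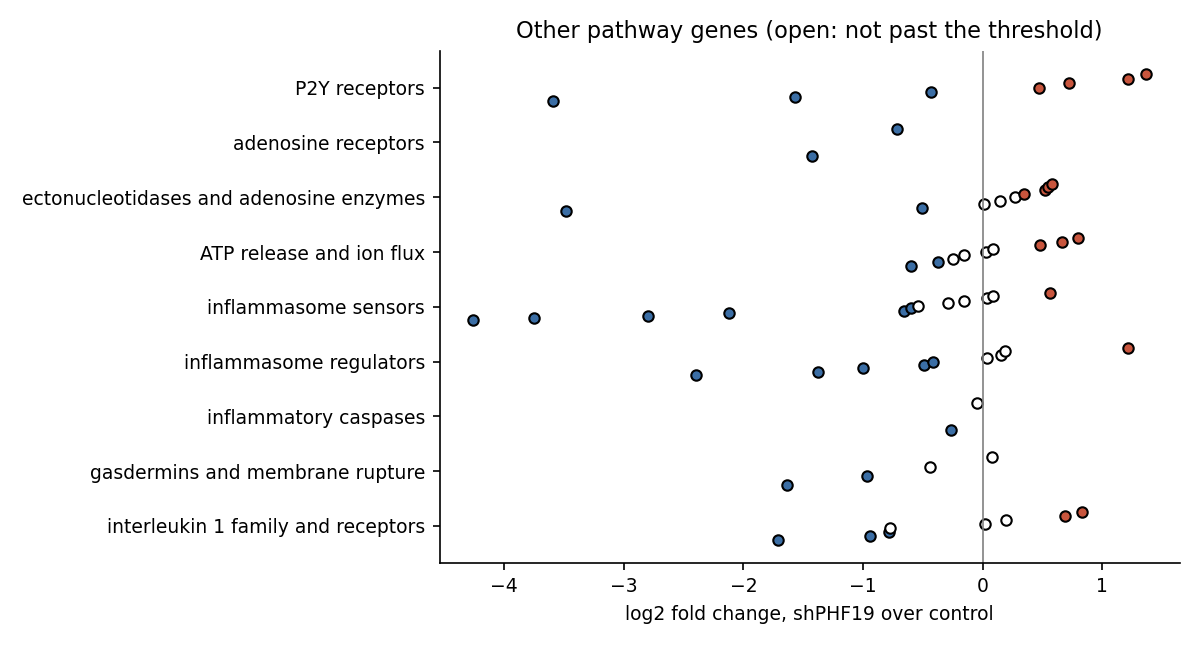
Log2 fold change of shPHF19 over control for the 62 other pathway genes that passed the filter, 1 point per gene, by list (red: rose; blue: fell; open: not past an adjusted p of 0.05). Inflammasome sensors reach from -4.26 (NLRP12) to 0.56 (NLRC5).

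PYCARD, which encodes the adaptor ASC, was nearly level between groups. It read 15.9, 18.0 and 17.8 CPM in control and 18.6, 17.8 and 17.8 CPM in shPHF19 libraries. The values overlapped, and the log2 fold change was 0.07 with a 95% interval from -0.21 to 0.35. Of its 1661 annotated exon bases 991 overlap PYCARD-AS1 on the opposite strand, and the sources used here do not tell whether counting used the strand. PYCARD-AS1 held 64 counts in the control and 31 in the shPHF19 libraries together. CASP1, the caspase of the complex, was barely detected in either group. It held 10, 4 and 11 counts in control and 6, 9 and 8 counts in shPHF19 libraries, or 0.236 to 0.713 CPM over all 6, beside 0.177 to 0.223 CPM for 3 counts. The ratio of shPHF19 to control was 1.03 with an exact (Clopper-Pearson) 95% counting interval of 0.559 to 1.89, so a change within that range was not detectable at this depth. Of the other caspases listed, CASP4 did not pass (-0.05), CASP5 and CASP12 had no count, and CASP8 fell by 0.26 (edgeR adjusted p = 0.0237). CASP8 was not called once replicate number entered the model as a block (-0.26, edgeR adjusted p = 0.059), nor without control replicate 1 (-0.22) or 3 (-0.27) or shPHF19 replicate 2 (-0.19), and with no filter on low counts (-0.24).

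GSDMD, the gasdermin cut by caspase-1, was higher in shPHF19 cells. It read 56.0, 70.8 and 59.2 CPM in control and 97.5, 90.7 and 83.6 CPM in shPHF19 libraries. The groups were separate, with a log2 fold change of 0.55 (SE 0.0982). Of 7 other genes of gasdermins and membrane rupture 4 were tested, and the 2 past the threshold (50.0%, beside 60.2% of all genes) both fell. NINJ1, which encodes the protein that ruptures the plasma membrane of dying cells, fell from 16.0, 21.4 and 15.5 CPM to 8.31, 5.05 and 3.78 CPM (-1.64, SE 0.194; edgeR adjusted p = 5.62e-10). GSDMB fell from 19.97 ± 0.343 to 10.3 ± 2.36 CPM (-0.96, edgeR adjusted p = 7.59e-07; SD, n = 3).

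Of 15 listed inflammasome regulators 9 were tested, 5 fell and 1 rose (66.7% called, near the 60.2% of all genes). NEK7, the kinase that binds NLRP3 in the assembled complex, fell from 93.1 ± 14.9 to 46.6 ± 5.33 CPM (-1.0, SE 0.106; edgeR adjusted p = 2.26e-11; SD, n = 3). TXNIP, an arrestin-like protein reported to bind NLRP3, fell from 1140 ± 10.5 to 439 ± 20.6 CPM (-1.38, edgeR adjusted p = 5.69e-20; SD, n = 3). MARK4, GBP5 and PSTPIP1 fell by 0.49, 2.39 and 0.42 (edgeR adjusted p = 0.000454, 0.00211 and 0.022), GBP5 from 15, 21 and 13 counts to 2, 1 and 5. GBP5 passed the filter through the control group alone, and without shPHF19 replicate 3 its value was -3.17. PSTPIP1 lost its call without control replicate 2 (-0.35) or shPHF19 replicate 2 (-0.40) and with DESeq2 (-0.40). HSP90AB1, a chaperone with near-identical copies in the genome, rose by 1.22 (edgeR adjusted p = 2.59e-18).

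Among the cytokines that the complex matures, IL18 fell from 24.9, 23.3 and 18.8 CPM to 11.8, 14 and 13.2 CPM (-0.78, SE 0.146; edgeR adjusted p = 9.5e-06). IL18BP, the secreted protein that blocks interleukin 18, rose by 0.83 (edgeR adjusted p = 2.58e-05). It shares 675 of its 4323 exon bases with NUMA1 on the opposite strand. IL1B was low in every library, at 26, 31 and 43 counts in control and 19, 10 and 23 counts in shPHF19 libraries, and was not past the threshold (-0.77, edgeR adjusted p = 0.104). IL1RN, the receptor antagonist, fell by 1.71, and of the interleukin 18 receptor chains IL18R1 fell by 0.94 and IL18RAP rose by 0.69 (edgeR adjusted p = 0.000463, 0.0012 and 0.00884). The IL18RAP call was lost with library totals only (0.48). Of 12 genes of the interleukin 1 family listed, 8 were tested, 3 fell and 2 rose (62.5% called). Over all 10 pathway lists, 98 genes, 62 were tested, 26 fell and 15 rose (66.1% called against 60.2% of all genes), with a median log2 fold change of -0.21 against -0.03. Genes that passed the filter through the control group alone enter this median, and the count of those that fell, as well. With library totals only, 31 fell and 11 rose.

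The genes described around P2RX7 on chromosome 12 differed by smaller amounts than P2RX7, and in both directions. P2RX4 lies 21824 bases beyond the end of P2RX7 on the same strand, from 121209857 to 121234106, and it is among 7 tested genes described here that lie within 250 kb of P2RX7. Of these, 4 rose and 2 were lower, P2RX4 and OASL. P2RX4 is among the genes selected on this comparison, so these 6 of 7 are not set against the 60.2% of all genes. Among the 7, P2RX4 and OASL have the start sites nearest to that of P2RX7, at 77.0 and -93.6 kb. The 4 that rose start 165 to 448 kb away. CAMKK2, a calcium-dependent kinase gene next to P2RX4, rose from 153 ± 2.1 to 222 ± 12.9 CPM (0.54, SE 0.0825; edgeR adjusted p = 2.33e-07; SD, n = 3). ANAPC5, KDM2B and RNF34 rose by 0.76, 0.33 and 0.28 (edgeR adjusted p = 2.46e-11, 0.000691 and 0.00808). Exons of RNF34 and KDM2B overlap by 439 bases on opposite strands. RNF34 (0.08) and KDM2B (0.13) lost their calls with library totals only, and RNF34 (0.18) also with upper-quartile factors, so that with library totals only 2 of the 7 rose and 2 fell. OASL, an interferon-induced gene upstream of P2RX7, fell from 4.88 ± 1.11 to 2.39 ± 0.537 CPM (-1.02, SE 0.278; edgeR adjusted p = 0.00146; SD, n = 3). SPPL3 was not past the threshold, at 0.10. Among these 7 the nearest value to that of P2RX7 was that of OASL, with a 95% interval of -1.58 to -0.46. P2RX7 and P2RX4 were chosen on this comparison. The distance between the values of P2RX7 and OASL, and the order of the neighbours by start site, are therefore descriptions only.

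Over the 6 libraries the 5 genes with the highest correlation of log2 CPM with P2RX7, among 10125 genes that averaged 5 CPM or more, were DDIT4 (Pearson's r 0.9997), PLIN2 (0.9995), PPP1R15A (0.9994), LSM14B (0.9994) and FTH1 (0.9994). The 6 points fall into 2 groups, so r mostly reflects the difference between groups, and 271 of these genes (2.68%) reached 0.99. Within groups, the correlation of deviations from the group mean was 0.31, 0.14, 0.94, -0.20 and 0.70 in the same order. These values rest on 6 libraries, in genes picked for their high r, and no share over all genes is given. They are a description and are not read as a link to P2RX7 beyond the group difference. The sizes of change of these 5 genes differed, from -4.40 for DDIT4 to -0.43 for LSM14B on the log2 scale.

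Markers of monocytes and macrophages, cells in which P2X7 and the inflammasome are best known, moved with P2RX7. Of 20 listed 13 were tested, 9 fell and 2 rose (VSIG4 and FCN1), or 84.6% called beside 60.2% of all genes. Among these, S100A8 (23, 24 and 27 counts in control, 0, 2 and 1 in shPHF19 libraries) passed the filter through control alone. FCN1 (0, 0 and 1 counts in control, 12, 16 and 15 in shPHF19 libraries) passed it through shPHF19 alone. The 20 markers summed to 409 to 422 CPM in control and 226 to 242 CPM in shPHF19 libraries. None was at 0 in all libraries, but the defining marker CD14 held 0 to 3 counts in each library. ITGAM (CD11b) fell from 34.3 ± 3.0 to 3.80 ± 0.156 CPM (-3.17, edgeR adjusted p = 3.31e-22; SD, n = 3). Of 10 markers of granulocyte precursors 6 were tested and all 6 rose (100%, beside 60.2% of all genes). The sums were 4160 to 4600 CPM in control and 8530 to 9930 CPM in shPHF19 libraries. Most of these sums was MPO, at 4273 ± 243 CPM in control and 8388 ± 653 CPM in shPHF19 cells (SD, n = 3). CEACAM8, LTF, CAMP and LCN2 of the same list did not pass the filter. Lymphocyte markers summed to 182 to 198 CPM and 190 to 223 CPM. CD3D and CD79B were higher and CD3E, CD8A and NKG7 lower among 8 tested (62.5% called, near the 60.2% of all genes). Erythroid and megakaryocyte markers summed to at most 12.8 CPM in any library, with PF4 at 0 in all. Stromal and epithelial markers summed to 57.8 to 72.1 CPM in control and 85.0 to 101 CPM in shPHF19 libraries, with EPCAM at 56.8 ± 7.87 and 84.7 ± 8.42 CPM (0.58, edgeR adjusted p = 3.5e-06; SD, n = 3). The part of these cell states in the level of P2RX7 and the other genes was not tested, and in bulk RNA fewer cells of a type and less RNA per cell cannot be told apart.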

How the data were processed

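RNA of 6 Kasumi-1 libraries was analysed, 3 control and 3 shPHF19, grouped by sample title. The authors deposited whole-number counts per gene symbol. The tools HTSeq 0.11.2 and HISAT2 2.1.0 and the build hg38 are those of the submitters' processing notes. The annotation is not named, nor is the strand setting given there. A second table deposited by the authors holds the results of their comparison for 5740 genes, with mean normalized signal, log2 fold changes, and p-values. It lists 4 of the 10 genes, and its p-values were not used.

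The test of the counts used edgeR 4.0.16 under R 4.3.3 (filterByExpr, TMM, robust quasi-likelihood F test, group only), two-sided, with Benjamini-Hochberg adjustment over 13014 genes and a threshold of 0.05. The filter favours genes that are high in 1 group. The standard error is the log2 fold change divided by the square root of F. The test was also run on simulated counts, and no conclusion about these libraries is drawn from that run. CPM and RPKM were computed here, with exon lengths and positions from GENCODE 29, matched by symbol. Each count of 3 corresponds to 0.177 to 0.223 CPM. Intervals on counts cover counting error only. In each group, replicates differed beyond counting noise (chi-square per degree of freedom 4.78 to 12.4).

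The members, lists and tests were chosen with earlier results of these data known. Named genes are, per pathway list, up to 4 with the smallest adjusted p and any in a count of 5 or fewer, tested neighbours of P2RX7, and the 5 genes most like it (no clone-based names or pseudogenes). MEFV, NLRP6 and genes not past the threshold were named after their values were seen. Not all annotated genes within 250 kb of P2RX7 are reported here. Of the 98 pathway genes 4 were matched through older symbols. Alternatives were DESeq2 1.42.0, limma-voom (limma 3.58.1), other scalings and filters, a replicate block, and leaving out each library.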

Additional observations from a re-analysis of the deposited data

How the results depend on the processing

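All 4 counts of called genes stayed within 1.5 times their value under each of the 13 alternatives. Leaving out 1 library gave 7099 to 7759 called genes in place of 7835, 5 to 6 of the 10 described genes in place of 6, 38 to 42 pathway genes in place of 41, and 6 neighbours as before. As a description of genes chosen on this comparison, P2RX7, P2RX4, P2RY2 and GSDMD kept their direction and their call under the 13 alternatives. P2RX7 stood at log2 fold changes of -4.13 to -3.90. P2RX1, P2RX5, ENTPD1 and NLRP3 kept their direction as well, but were not past the threshold under each alternative. PYCARD, not past the threshold, changed sign with upper-quartile factors (-0.034) and with library totals only (-0.14), as SPPL3 did with library totals only (-0.10). CASP1 gave -0.31 to 0.14 under the 6 settings that tested it and was never past the threshold. Of 41 called pathway genes 32 were called under each alternative that tested them (NLRP6 and GBP5 were not tested with the filter of 1 CPM) and 9 lost the call under at least 1. The causes were not tested. The labels do not say whether shared replicate numbers pair the libraries. Deviations of same-numbered libraries from their group means correlated at -0.164, -0.007 and -0.054, and those of other-numbered libraries at -0.127 to 0.173. With 3 libraries per group these values cannot tell whether the libraries were paired. With the number as a replicate block 7307 genes, 6 described genes, 40 pathway genes and 6 neighbours were called. CASP1, IL1B, NLRP6, NLRP12, MEFV, GBP5 and LPAR4 held few counts in 1 or both groups, which limits their precision.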
